A study of Rattus norvegicus with 15 samples.

Results

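Odorant receptor (OR) genes of the smaller autosomal clusters were examined in the olfactory epithelium of young adult rats. Members were the array probes whose gene name begins with Olr and whose annotated position lies on chromosome 2, 4, 5, 6, 9 or 11 to 19. The rule gave 158 genes, each with 1 probe of 60 bases, out of 1112 Olr probes and 41012 probes on the array. Chromosome 15 held 36 of them, chromosome 11 held 30, chromosomes 4 and 5 held 26 each and chromosome 13 held 19. Chromosomes 9 and 17 held 8 each, chromosomes 2 and 19 held 2 each, and chromosome 12 held 1, whereas chromosomes 6, 14, 16 and 18 held 0. Members of a chromosome separated by less than 5 Mb were counted as a cluster. This gave 18 clusters of 1 to 33 genes, and where a chromosome has several they carry letters in order of position (4a and 4b, for example).

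ORs are G protein-coupled receptors with which the sensory neurons of the nose detect odorants. A mature neuron is thought to express a single OR gene from a single allele, so the OR transcripts of a whole epithelium sum the choices of many neurons. Neurons that chose a given OR are scattered within a restricted zone of the epithelium rather than over all of it. Receptors of families numbered below 51 are class II receptors. Current RefSeq symbols, which carry the family and subfamily, were found for 155 members, 154 through the accession and 1 through a synonym. All 152 members with a family number belonged to class II.

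The animals were 8 Brown Norway rats aged 6 weeks, 4 males (rats 1, 2, 5 and 6) and 4 females (rats 3, 4, 7 and 8), and no treatment separated the groups. The nostrils of each rat, labeled A and B, were dissected and hybridized apart, with nostril A alone for male 1, which gave 7 male and 8 female arrays. Whether A stands for the left or the right side is not given in the labels. By the methods, the left side of a male supplied by Elevage Janvier failed the quality threshold for RNA, which points to male 1, the rat with 1 array, while side and supplier of the other rats are not given. A whole epithelium is a mixture of cells, so that fewer cells of a type and less RNA per cell cannot be told apart.

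Signals were divided by the median of their array and expressed as log2, here called the level, with a floor of -3.32. Array medians were 57.4 to 83.4 intensity units, and the lowest signal called well above background lay between levels of -2.96 and -2.08. Transcripts below that were not detectable on the array concerned. The arrays lay on 4 slides: males 1 and 2 and nostril A of female 3 on slide 1, nostril B of female 3 and female 4 on slide 2, males 5 and 6 on slide 3, and females 7 and 8 on slide 4. The tissue was checked by its markers. Of 12 probes for 9 mature olfactory neuron markers, 11 were detected on all 15 arrays, and Omp, the abundant cytoplasmic protein of these neurons, had a mean level of 7.52. The exception was Rtp2, detected on 1 array. Basal cell marker Krt14 was detected on 0 arrays, and the vomeronasal channel gene Trpc2 on 6 arrays by 1 probe and on 15 by the other.

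Since related ORs can share long stretches of sequence, the probes were compared with each other first. The best match of a member's probe to any other Olr probe, without gaps and with a shift of up to 10 bases, had a median identity of 56.7% and reached 90%. It was at least 85% for 6 members, which form 3 pairs. They are printed because the identity of their targets bears on every later value; capitals mark the bases that differ between the members of a pair. Positions are those of the array annotation on build rn3.
Olr1536 (chr11:41993367-41993426, minus strand): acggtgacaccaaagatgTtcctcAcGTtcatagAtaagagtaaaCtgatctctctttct
Olr1540 (chr11:42088841-42088900, plus strand): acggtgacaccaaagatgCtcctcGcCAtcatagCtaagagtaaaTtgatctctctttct
Olr825 (chr4:153003305-153003364, plus strand): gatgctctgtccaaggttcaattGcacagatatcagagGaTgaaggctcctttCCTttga
Olr826 (chr4:153027597-153027656, plus strand): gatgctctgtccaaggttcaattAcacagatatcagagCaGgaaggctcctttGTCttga
Olr844 (chr5:70091299-70091358, plus strand): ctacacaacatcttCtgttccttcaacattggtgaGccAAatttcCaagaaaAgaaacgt
Olr850 (chr5:70267433-70267492, minus strand): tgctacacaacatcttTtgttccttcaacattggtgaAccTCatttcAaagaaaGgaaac
The first 2 pairs differ at 6 of 60 bases, and the third, which is offset by 2 bases, at 6 of the 58 bases aligned.

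Despite that likeness, Olr1536 and Olr1540 gave different results. Olr1536 was detected on all 15 arrays with intensities of 88.3 to 237, whereas Olr1540 was detected on 0 arrays and stayed between -0.955 and 4.8 intensity units. Olr825 and Olr826 were both detected on all 15 arrays, and Olr844 and Olr850 on 13 and 12. The array annotation lists the accession of another Olr probe for 6 members: Olr824 (with Olr825, Olr826 and Olr829), Olr844 (Olr848), Olr865 (Olr869), Olr1531 (Olr1532), Olr1548 (Olr1549) and Olr1633 (Olr1635). The values of these 6 may include transcripts of the genes in brackets.

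The next question was how many of these ORs are detectable. A gene was called expressed when its probe was well above background on at least 11 of the 15 arrays, weakly expressed on 1 to 10 arrays, and not expressed on 0. By these classes 118 of the 158 genes (74.7%) were expressed, against 65.1% of all 41012 probes and 63.5% of the 954 other Olr probes. A further 21 (13.3%) were weakly expressed, against 11.1% of all probes and 16.9% of other Olr probes, and 19 (12%) were not expressed, against 23.8% and 19.6%. Detection on every array held for 100 members (63.3%, against 61.3% and 53.6%). Each array detected 112 to 131 members, and the lowest numbers, 113 and 112, came from nostrils A and B of male 6, whose arrays also had the highest limits of detection. None of these shares was tested.

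**Figure D1:**
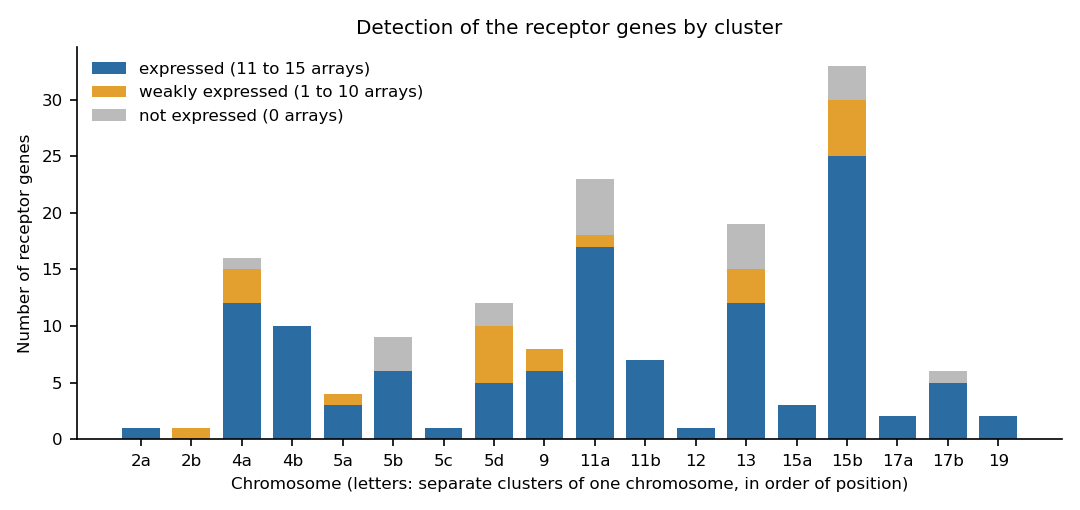
Number of OR genes per cluster (vertical axis) by detection class, for the 18 clusters in order of chromosome (horizontal axis). All genes of clusters 4b and 11b were expressed, whereas cluster 5d held 5 expressed genes of 12.

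Clusters and subfamilies differed in how many genes were detected. Cluster 4b (10 genes within 0.23 Mb) and cluster 11b (7 genes over 2.86 Mb) were expressed throughout, and so were the 3 genes of cluster 15a and the 2 genes each of clusters 17a and 19. All 9 genes of subfamily 6D, which make up most of cluster 4b, were expressed, and 8 of them were detected on every array. In the largest cluster, 15b (33 genes over 6.42 Mb), 25 were expressed, 5 weakly expressed and 3 not expressed. Cluster 5d had the lowest share among clusters of several genes, with 5 of 12 expressed (41.7%), and its subfamily 10AK had 2 of 7. In cluster 11a, 10 of 11 genes of subfamily 5H were expressed but 2 of 6 of the neighboring subfamily 5AC, of which 3 were not expressed. In cluster 13, subfamily 6K likewise had 2 of 6 expressed and 3 not expressed (Olr1590, Olr1591 and Olr1592). Genes that were expressed and genes that were not thus lay in the same clusters.

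The 19 members that were not expressed came from 7 clusters: 5 from 11a, 4 from 13, 3 each from 5b and 15b, 2 from 5d, and 1 each from 4a and 17b. The guanine and cytosine content of their probes had a median of 36.7%, against 41.7% in the expressed and in the weakly expressed class. Base composition affects hybridization, and its part in the detection was not tested. The best identity to another Olr probe had a median of 56.7% in both the expressed and the not expressed class. RefSeq lists all 155 matched members as protein-coding genes, so detection could not be compared with pseudogenes.

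The study designed RTqPCR primers for 25 members, and 20 of these were expressed on the arrays, 3 weakly expressed and 2 not expressed. The expressed ones lay on chromosomes 15 and 17 (5 each), 4, 11 and 13 (3 each) and 5 (1). The weakly expressed ones were 2 genes of chromosome 13 and 1 of chromosome 5, and the ones not expressed were 2 genes of chromosome 13.

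Among the 21 weakly expressed members, 0 had calls alike in both nostrils of all 7 rats with 2 arrays. The same count was not made for other probes, so that this 0 cannot be read as a trait of the members. For probes with mixed calls, the study reported that the sides of a rat were alike more often than at random. Olr1644, in cluster 15b, was called in both nostrils of male 2 and females 3, 4 and 8, in nostril A of male 6 and female 7, in neither nostril of male 5 and not in the 1 nostril of male 1. It was thus called on 7 of 8 female and 3 of 7 male arrays, the widest difference between the sexes. Olr803 went the other way, with 5 of 7 male and 3 of 8 female arrays. Olr833 was called on 6 female and 3 male arrays. Olr860 and Olr869, both in cluster 5d, were called in nostril B of females 3 and 4 and nowhere else. Olr1344 was called in female 4A and female 8B. These calls lie near the limit of detection, and the differences were not tested.

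Levels of different probes are not set against each other, because probes differ in how well they hybridize; the values that follow say where each probe stood and how far rats spread. Within each cluster, the brightest and dimmest probe detected on all 15 arrays are given as mean level ± SD over 8 rats. In cluster 11a these were Olr1557 (5.88 ± 0.34) and Olr1539 (-0.94 ± 0.45). In cluster 15b they were Olr1627 (4.90 ± 0.30) and Olr1608 (-1.5 ± 0.22). In cluster 4a they were Olr821 (4.51 ± 0.25) and Olr816 (-1.46 ± 0.43). The SD of these 6 probes lay between 0.22 and 0.45.

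In cluster 11b they were Olr1566 (4.02 ± 0.28) and Olr1570 (-0.65 ± 0.31), and in cluster 4b Olr826 (3.49 ± 0.26) and Olr829 (-1.53 ± 0.22). In cluster 17b they were Olr1658 (2.92 ± 0.23) and Olr1657 (-0.86 ± 0.33), and in cluster 9 Olr1353 (2.80 ± 0.25) and Olr1352 (-1.25 ± 0.16). Cluster 5a had Olr837 (2.27 ± 0.52) and Olr839 (-0.37 ± 0.47), and cluster 5b Olr851 (1.68 ± 0.34) and Olr841 (-0.44 ± 0.26). Among these 12 probes the SD was widest in cluster 5a. Cluster 13 had Olr1602 (2.11 ± 0.49) and Olr1587 (-0.99 ± 0.76), and Olr1587 ranged from -1.78 in male 5 to 0.47 in male 1, the widest range over rats of any member tested (4.78-fold). That range rests on the single array of male 1, and the next highest mean of Olr1587 was -0.34 in male 2. Clusters 17a, 15a, 5d and 19 had Olr1652 (2.06 ± 0.18) and Olr1653 (0.43 ± 0.30), Olr1605 (1.66 ± 0.27) and Olr1607 (0.51 ± 0.37), Olr856 (-0.07 ± 0.16) and Olr862 (-0.64 ± 0.23), and Olr1666 (0.16 ± 0.28) and Olr1667 (0.03 ± 0.28). Clusters of 1 gene gave Olr1572 (chromosome 12, 1.31 ± 0.27), Olr390 (2a, 1.18 ± 0.32) and Olr854 (5c, 0.26 ± 0.57), while Olr392 of cluster 2b was detected on 1 array.

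The nostrils of a rat were compared next. Tests across all probes used limma and the probes detected on at least 7 arrays, which kept 124 members: the 118 expressed ones and 6 weakly expressed ones. At a false discovery rate of 1%, 0 of the 124 members differed between nostrils A and B, as did 0.0% of the 27574 probes tested. At an unadjusted p under 0.05, 34 members (27.4%) passed, against 5.89% of all probes and 15.3% of the 639 other Olr probes. This number was 22 without female 4 and 58 without female 8. Nostril B was higher for 72 of 124 members (58.1%, against 55.8% of all probes and 72.5% of other Olr probes). The spread between nostrils was wide for ORs in general. Among probes detected on all 15 arrays, the SD within a rat had a median of 0.345 for 100 members, 0.343 for 511 other Olr probes and 0.108 for all probes.

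The 34 members were not spread evenly over the clusters. In clusters 5a, 5b and 5c of chromosome 5, all 11 genes tested (subfamilies 13C, 13E, 13F, 13J and 2K) had a higher mean in nostril B, and 10 of them had an unadjusted p under 0.05. Their mean differences ran from 0.53 to 1.69 on the log2 scale (1.44-fold to 3.24-fold), with a median of 0.99. For Olr833 and the 4 genes with the largest differences, some arrays of nostril A were not well above background. In subfamilies 2R and 9A of cluster 4a, 4 of 4 genes had a higher mean in B, with a median of 1.21, and Olr1598 (cluster 13) and Olr1646 (cluster 15b) differed by 0.77 and 0.71. The other 113 members tested outside the 3 chromosome 5 clusters had a median of 0.05, with 61 of 113 higher in B. These groups were singled out after their values were seen, and the adjusted p of every one of their genes was 0.781 (limma).

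**Figure D2:**
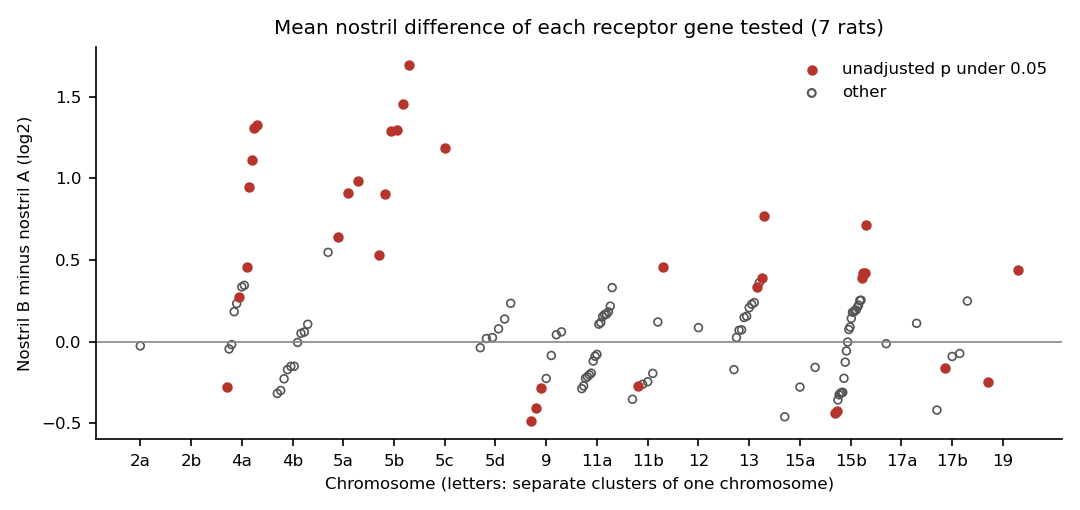
Mean difference between nostril B and nostril A (vertical axis, log2) of each of the 124 OR genes tested, by cluster (horizontal axis); filled points have an unadjusted p under 0.05. The 11 points of clusters 5a, 5b and 5c all lie above 0, between 0.53 and 1.69.

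Olr847, of subfamily 13C, had the largest mean difference, 1.69 (SE 0.43, unadjusted p = 0.00319, adjusted p = 0.781). With normexp and quantile normalization, the differences of the 4 members with the smallest p shrank to 0.67 for Olr847, 0.56 for Olr854, 0.48 for Olr844 and -0.15 for Olr1350. That alternative adds an offset of 50 intensity units before the log2, which by itself lowers log2 differences of dim probes. The share of the offset in the shrinkage was not tested. The probes of Olr847 and of its neighbor Olr848 are printed because their differences between nostrils ran alike:
Olr847 (chr5:70186955-70187014, minus strand): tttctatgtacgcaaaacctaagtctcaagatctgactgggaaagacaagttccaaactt
Olr848 (chr5:70218173-70218232, plus strand): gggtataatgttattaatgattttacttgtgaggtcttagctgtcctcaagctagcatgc
The best identity to another Olr probe was 51.7% for Olr847 and 56.7% for Olr848. Transcripts without a probe on the array were not compared. The intensity of Olr847 in nostrils A and B was 38.7 and 92.0 in male 2, 58.5 and 147 in female 3, 52.8 and 117 in female 4, 9.13 and 72.2 in male 6, 23.8 and 186 in female 7, and 10.2 and 94.5 in female 8. Male 5 went the other way, with 55.2 in nostril A and 34.8 in nostril B. In nostril A of male 6 and of female 8, the probes of Olr844, Olr847, Olr848 and Olr850 were not well above background (Olr850 also in female 7), so that the differences of these genes in these rats rest on values below the limit of detection.

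Expressed on the log2 scale, nostril B exceeded nostril A for Olr847 by 1.24 in male 2, 1.19 in female 3, 1.14 in female 4, 2.93 in male 6, 2.86 in female 7 and 3.26 in female 8, and was lower by a value of -0.76 in male 5. For Olr848 the same differences were 1.05, 0.90, 1.31, 2.19, 2.23 and 2.52, with -1.14 in male 5. All 6 genes tested in cluster 5b (Olr841, Olr844, Olr847, Olr848, Olr850 and Olr851) were higher in B in each of these 6 rats and lower in B in male 5. The nostrils lay on the same slide in 6 of the 7 rats, the exception being female 3.

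Other genes had the same sign in some of these rats. Olr854 (5c, subfamily 2K) had the smallest unadjusted p, 0.00182, with a mean difference of 1.18 (SE 0.28) and values of 0.98, 1.00, 2.02, 1.36, 1.88 and 1.69 in the same 6 rats and -0.65 in male 5. Olr837 (5a) differed by 1.82 in female 4, 1.5 in male 6, 1.90 in female 7 and 1.85 in female 8, but by -0.18 in male 2, 0.24 in female 3 and -0.23 in male 5. Olr799 (4a, subfamily 9A) was higher in B in all 7 rats, from 0.23 in male 5 to 3.15 in female 7. Olr802 (subfamily 2R) reached 3.18 in female 7 and was slightly lower in B in males 2 and 5 (-0.14 and -0.34). In nostril A of male 6 and female 7 neither Olr799 nor Olr802 was well above background, nor was Olr802 in nostril A of female 8. Olr803 was not well above background in nostril A of 5 of the 7 rats, and the size of the difference is uncertain there. Olr854 and Olr837 were detected on all 15 arrays.

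Some genes had the opposite sign. Olr1350, of subfamily 9S in cluster 9, had a mean difference of -0.49 (SE 0.12, unadjusted p = 0.00293, adjusted p = 0.781). Nostril A was higher in 6 rats, and in female 8 the difference was 0.00. In cluster 4b, 3 of 10 genes were higher in B and 0 had an unadjusted p under 0.05. Cell type markers were summed per list, and since a sum over bright probes varies less than single genes do, its range is not compared with that of the members. The level in B minus that in A lay between -0.18 (male 2) and 0.24 (male 6) for mature neuron markers, between -0.07 and 0.25 for immature neuron markers and between -0.11 and 0.23 for sustentacular cell markers. It lay between -0.53 and 0.04 for basal cell, -0.20 and 0.45 for motile cilia, -0.43 and 0.46 for bone, -1.31 and 0.31 for blood and -3.48 and 0.13 for skeletal muscle markers. The blood list held 2 probes. Skeletal muscle is no sum but 1 dim probe, Tnnt3, with a mean level of -1.69 and detection on 12 arrays. The part of these cells in the members' differences was not tested.

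**Figure D3:**
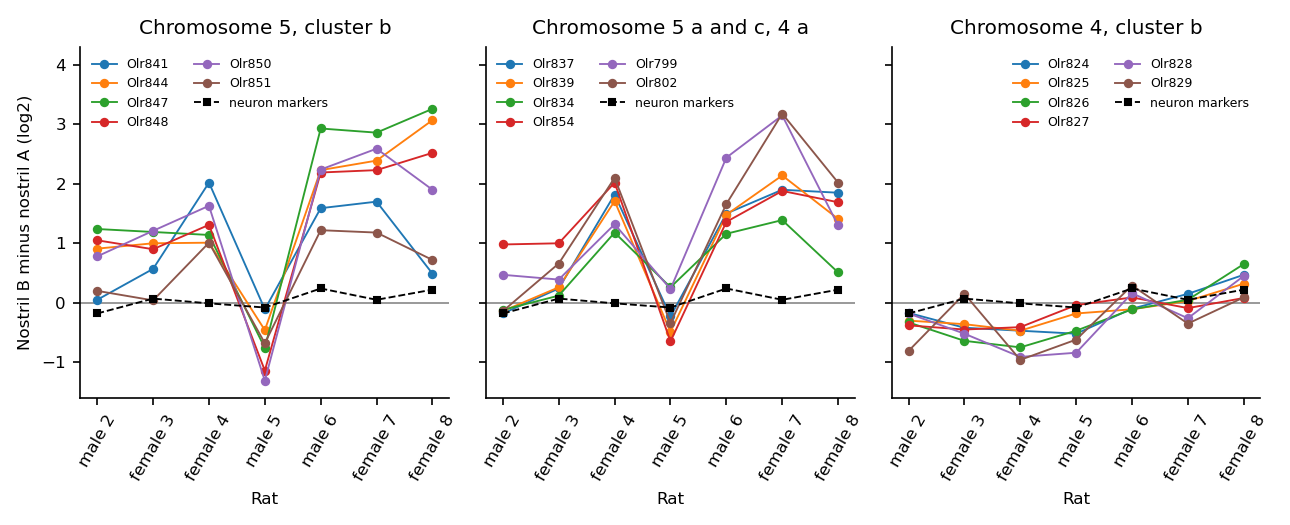
Difference between nostril B and nostril A (vertical axis, log2) in each of the 7 rats (horizontal axis) for genes of cluster 5b (left), of clusters 5a, 5c and 4a (middle) and of cluster 4b (right); lines join the points of a gene and black squares give the summed mature neuron markers. The genes of cluster 5b lie above 0 in 6 rats and below 0 in male 5. The summed markers lie between -0.18 and 0.24, and a sum varies less than single genes do.

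Whether the nostril difference depended on sex was tested by an interaction term. Of 124 members, 0 were called at 1% (0.0% of all probes), with all adjusted p at 1.00 by limma. At an unadjusted p under 0.05, 15 members passed (12.1%, against 2.36% of all probes and 14.6% of other Olr probes). The smallest unadjusted p, 0.00219, belonged to Olr801 of subfamily 2R. Its nostril difference was -0.35, -0.31 and 0.93 in males 2, 5 and 6, and 1.03, 2.32, 2.41 and 1.76 in females 3, 4, 7 and 8. In nostril A of female 8 the probe was not well above background, so that the last of these values and the low mean of female 8 are uncertain in size.

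The rats of a sex were then compared with each other, with the spread between nostrils as the error. At a false discovery rate of 1%, 1 of 124 members differed (0.806%), against 2.79% of the 27574 probes tested. It was the gene Olr1602, and of the 639 other Olr probes 0 were called. At 5%, 7 members passed (5.65%, against 16.1% of all probes), and 25 had an unadjusted p under 0.05 (20.2%, against 37.1%). The rat means of a member spanned a median of 1.95-fold, and 56 of 124 members spanned more than 2-fold. These spans were not taken for other probes, so that they are no trait of the members, and male 1 enters them with a single array.

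Olr1602 (current symbol Or6y1) lies at the end of cluster 13 and was detected on all 15 arrays. Its probe is printed because it carried the one call among all Olr probes:
Olr1602 (chr13:90334968-90335027, plus strand): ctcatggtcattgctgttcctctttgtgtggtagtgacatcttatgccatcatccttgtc
Its best identity to another Olr probe was 53.3%. In males the level was 2.45 in male 1, 2.53 and 2.44 in nostrils A and B of male 2, 2.06 and 2.19 in male 5, and 1.27 and 1.59 in male 6. In females it was 2.75 and 2.27 in female 3, 2.60 and 2.73 in female 4, 1.79 and 1.77 in female 7, and 1.38 and 1.55 in female 8. The lowest rat mean, 1.43 in male 6, and the highest, 2.67 in female 4, were 2.35-fold apart (F = 24.0, adjusted p = 0.00248 by limma). Rats 1 to 4 were all above rats 5 to 8 in this transcript, without overlap between arrays.

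Slide went along with that order, since rats 1 to 4 lay on slides 1 and 2 and rats 5 to 8 on slides 3 and 4. The rats came from a pair of suppliers according to the methods, and, male 1 apart, which rat came from which is not given in the sources used here, so that supplier was not analysed here. With slide as a random block the adjusted p of Olr1602 rose to 0.0127, and between rats compared within slides it was 0.120 (unadjusted p = 0.000665). Calls at 1% fell for the whole array too, from 2.79% of all probes to 0.537% with the random block and 0.00363% within slides. The rat means within a slide were 2.45 and 2.48 for males 1 and 2 on slide 1, 2.13 and 1.43 for males 5 and 6 on slide 3, and 1.78 and 1.46 for females 7 and 8 on slide 4. The difference of rats 1 to 4 from rats 5 to 8 cannot be told apart from slide. Without female 8 the adjusted p was 0.0140. The summed mature neuron markers were 10.71 to 10.92 in males and 10.78 to 10.99 in females, and for male 6 and female 4, the extremes of Olr1602, they were 10.88 and 10.90. Summed basal cell markers were lower in rats 1 to 4 (5.58 to 5.90) than in rats 5 to 8 (5.97 to 6.35), without overlap. Within these groups their order was not the reverse of Olr1602, since female 8 had the lowest sum of rats 5 to 8. Bone markers were at 10.84 to 11.71 and 11.70 to 12.34. The part of these cells in the difference of Olr1602 was not tested.

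The other 6 members past 5% had different orders of rats. Between rats compared within slides 0 of them passed 5%, in a fit that called 0.00363% of all probes at 1%. With slide as a random block Olr858, Olr390 and Olr1632 passed (adjusted p = 0.0383, 0.0345 and 0.0490), whereas Olr1660, Olr1596 and Olr1593 did not (0.0850, 0.0686 and 0.0752). Without female 8, Olr1632, Olr1660, Olr1596 and Olr1593 did not pass (0.0749, 0.0834, 0.270 and 0.127). Olr858 (5d, subfamily 13P, F = 12.3, adjusted p = 0.0111) was highest in female 3 (-0.65) and lowest in male 2 (-2.50), a 3.61-fold range, and both nostrils of female 3 (-0.73 and -0.57) were above all other arrays. It was detected on 12 arrays, not including nostril A of male 2, and without female 3 its F was 4.92. Olr390 (2a, adjusted p = 0.0148) stood at 1.90 in male 1, against 0.85 to 1.34 in the other rats; male 1 has a single array, and without it F fell from 10.7 to 3.78. Olr1632 (15b, adjusted p = 0.0163) ranged from -0.88 in female 8 to 1.05 in male 1 (3.83-fold). Olr1660 (17b, adjusted p = 0.0289) was highest in female 8 (1.02) and lowest in female 3 (0.24). Olr1596 and Olr1593, both of subfamily 6K in cluster 13 (adjusted p = 0.0299 and 0.0365), were both highest in male 1 (2.41 and 0.20). Olr1581 (F = 5.57, adjusted p = 0.0511) followed, lowest in female 8 (-0.61). Markers of other cells stood apart in male 1 too: its summed vomeronasal markers were at 2.82, against 1.81 to 2.06 in the other rats. Summed blood markers ranged from 6.51 in female 7 to 10.43 in male 6. Their part in the differences between rats was not tested.

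**Figure D4:**
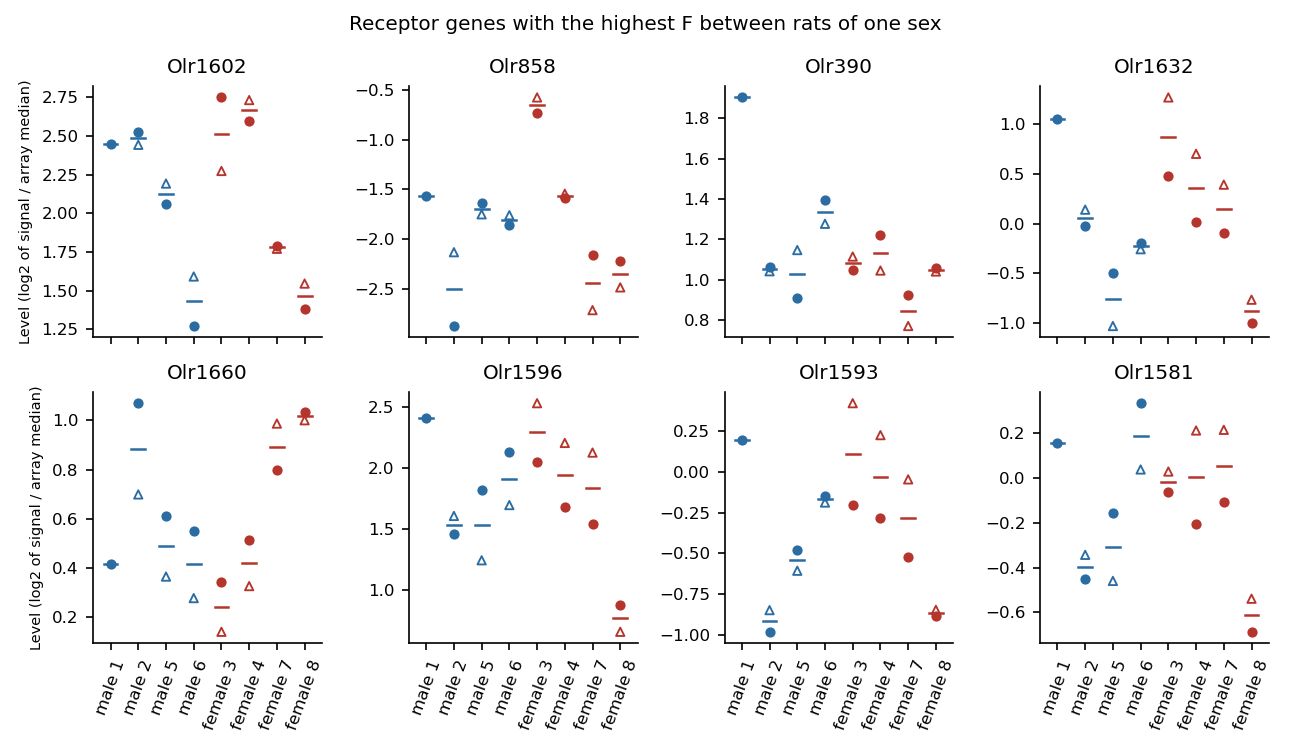
Level (vertical axis, log2 of signal over array median) of the 8 OR genes with the highest F between rats of one sex, in nostril A (filled circles) and nostril B (open triangles) of each rat (horizontal axis, males blue, females red); short lines are rat means. Olr1602 runs from 1.43 in male 6 to 2.67 in female 4, and Olr858 is highest in female 3.

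Sex and slide were largely confounded, since slides 2, 3 and 4 each held a single sex and slide 1 held both through nostril A of female 3 alone. Between the sexes, 0 of 124 members passed a false discovery rate of 1% on the 8 rat means, against 0.0434% of the 27625 probes tested, and 0 passed 5%. At an unadjusted p under 0.05, 9 members passed (7.26%, against 17.1% of all probes and 8.29% of other Olr probes). This number was 26 without male 2, 16 without female 4 and 4 with slide as a block. It was 6 by the unmoderated two-sample test of the methods, which called 0 after adjustment. Females had the higher mean for 83 members (66.9%, against 52.1% of all probes and 58.2% of other Olr probes), with a median difference of 0.10 on the log2 scale, 0.06 for other Olr probes and 0.01 over all probes. The median was 0.07 with scaling to the 75th percentile and 0.05 with normexp and quantile normalization. It was 0.04 without female 3 (67 members higher in females), 0.18 without female 8 (102 members) and 0.19 with slide as a block, a value that rests on that array. The mature neuron markers had a median difference of 0.08 in the same direction, with 9 of 11 probes higher in females. Sustentacular cell markers had a median difference of 0.31, and their sum did not overlap between the sexes (10.60 to 10.72 in males, 10.80 to 10.94 in females). Blood markers had a median of -1.67, with sums of 7.61 to 10.43 in males and 6.51 to 9.69 in females. The part of these cells in the members' difference was not tested.

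The member with the smallest p was Olr1553 (11a, subfamily 5H). Its rat means were 1.86, 2.96, 2.58 and 2.33 in males 1, 2, 5 and 6 and 3.34, 2.98, 3.16 and 2.91 in females 3, 4, 7 and 8, a difference of 0.66 (SE 0.21, unadjusted p = 0.00986, adjusted p = 0.162). Male 2 lay within the female range, and the other males below it. Olr1667 (19, subfamily 10K) was -0.13, -0.08, -0.19 and -0.31 in the males and 0.05, 0.25, 0.05 and 0.59 in the females, so that the rat means of the sexes did not overlap (difference 0.41, SE 0.13, adjusted p = 0.174). Olr1343 (9, subfamily 6B) differed by 0.48 (adjusted p = 0.193), with -1.31 to -0.83 in males and -1.07 to -0.45 in females. Olr1563 (11a), Olr1601 (13) and Olr828 (4b) differed by 0.45, 0.50 and 0.39 with overlap between the sexes. Olr1631 (15b), at the lower end of detection with 12 arrays, differed by 0.43.

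Olr801 was the one member of the 8 with a lower mean in females. Its difference was -0.70 (SE 0.30, adjusted p = 0.270), with -0.54 to -0.15 in males and -2.16 to -0.61 in females, so that rat means did not overlap, and female 8 was the lowest. Without female 8 the difference was -0.36. Adjusted p of these 8 members lay between 0.162 and 0.283. With normexp and quantile normalization the differences kept their sign but were smaller for all 8, at -0.15 for Olr801, 0.11 for Olr1631, 0.17 for Olr1343, 0.20 for Olr1667, 0.21 for Olr1601, 0.28 for Olr1563, 0.29 for Olr828 and 0.54 for Olr1553. The offset of that alternative by itself lowers differences of dim probes, and its share was not tested. With slide as a block the differences of Olr1631 and Olr828 were 0.19 and 0.25.

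**Figure D5:**
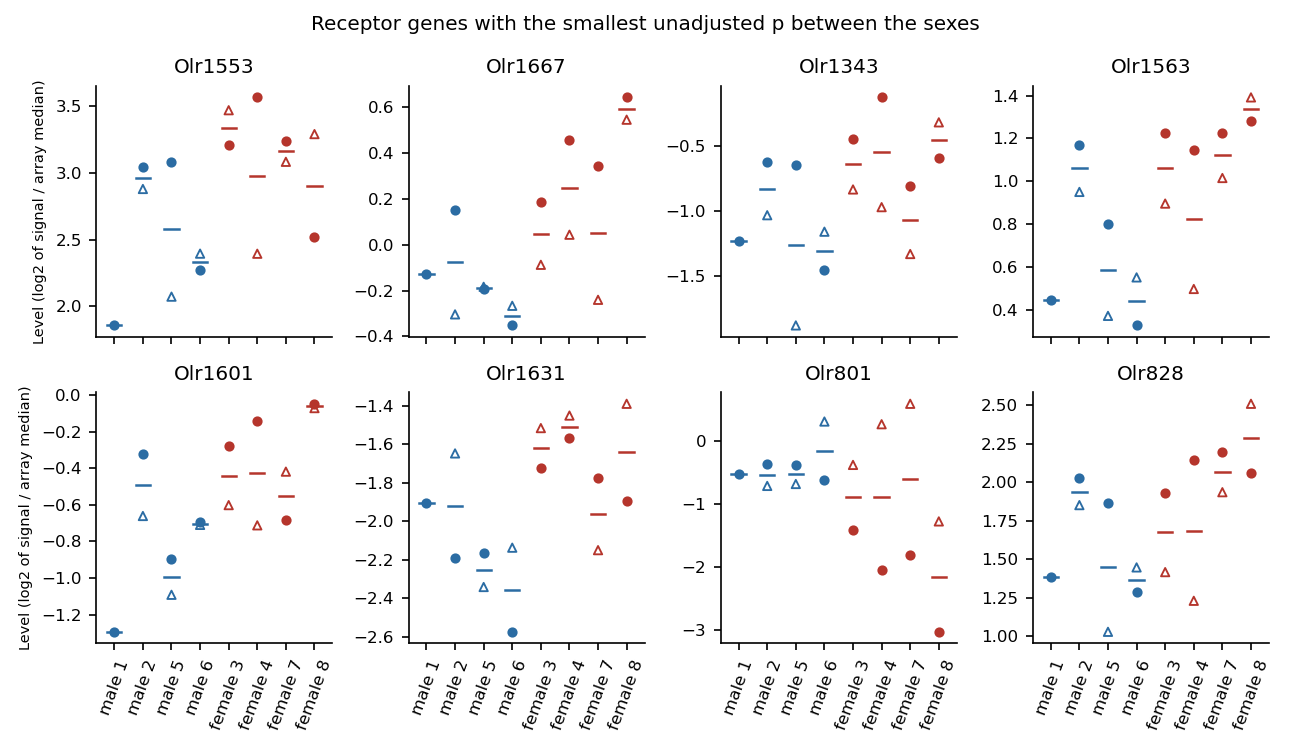
Level (vertical axis, log2 of signal over array median) of the 8 OR genes with the smallest unadjusted p between the sexes, in nostril A (filled circles) and nostril B (open triangles) of each rat (horizontal axis, males blue, females red); short lines are rat means. Females exceed males without overlap of rat means for Olr1667, and males exceed females in the same sense for Olr801, while single nostrils overlap in both.

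Members of a cluster were compared in how they varied across rats, as a description over 8 rat means. The Pearson correlation had a median of 0.29 over 755 pairs of the same cluster and 0.11 over 6871 pairs of different clusters. Pairs of other Olr probes, taken without regard to position, had a median of 0.29. Cluster 5b stood highest with a median of 0.87 over 15 pairs, followed by 17a (0.69, 1 pair), 11b (0.61, 21 pairs) and 13 (0.50, 78 pairs), whereas cluster 17b was at -0.11 over 10 pairs. All 6 genes tested in cluster 5b had their lowest rat mean in female 8, and 5 of them their highest in female 3. In nostril A of female 8 and male 6, Olr844, Olr847, Olr848 and Olr850 were not well above background, so these rat means are uncertain in size. Nor are the probes independent, since those of Olr844 and Olr850 differ at 6 of 58 bases and Olr844 may include transcripts of Olr848. Olr837 and Olr839, neighbors in cluster 5a, reached 0.985. Some of the highest values joined genes of different chromosomes, such as Olr1596 and Olr1641 (0.990). After the mean of each slide was subtracted the median over 15 arrays was 0.14 within clusters, 0.04 between clusters and 0.18 for pairs of other Olr probes, which was then above the value within clusters. All pairs share arrays, dissections and the share of mature neurons in each sample.

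Genes that serve all ORs were set beside the members by lists. The transduction list had 22 probes for 13 genes, among them Gnal (the G protein subunit of OR signaling), Adcy3 (the cyclase) and Cnga2 (the cation channel). Of these probes 0 were called at 1% between nostrils, between rats or between the sexes, against 0.0%, 2.79% and 0.0434% of all probes. A higher mean in females was found for 19 of the 22, against 52.1% of all probes. This list shares Gnal, Adcy3, Cnga2, Cnga4, Cngb1 and Omp with the mature neuron markers. Of 8 probes for 7 regulators of OR choice such as Lhx2, Ebf1 and Ldb1, 0 were called in any of the 3 comparisons. Of 5 probes tested for receptor transport genes, among them Rtp1, which brings ORs to the cell surface, 0 were called as well. At the shares of all probes, lists of this size would hold few calls if any, so these counts of 0 say little.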

How the data were processed

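Total RNA of each nostril was labeled with Cy3 and put on a one-color Agilent array of the rat genome, and the authors extracted the images with Feature Extraction (9.5.1.1 per the file headers). The deposited intensity values were background-subtracted and detrended within the array, not scaled between arrays; flags for detection and outlying spots (coded 0 or 1, an other kind of value) were deposited beside them. The authors also deposited a ratio table, each signal over its array and probe medians, used as an alternative. Agilent's annotation (rn3) gave names and positions, and RefSeq (GRCr8) current symbols.

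Outlying spots were left out and 43379 spots averaged to 41012 probes. Signals were divided by the array median, raised to a floor of 0.1 and put on a log2 scale. Members tested were those detected on at least 7 arrays. limma 3.58.1 in R 4.3.3 (trended eBayes, two-sided, Benjamini-Hochberg over all probes) compared the sexes on rat means, nostrils with rat as a block, since nostrils of 1 rat are paired by the labels, and rats by an F test. The scripts were tested on simulated data. Named genes were the brightest and dimmest per cluster, 8 by sex, 8 by rat, 4 by nostril, up to 6 weakly expressed, every call and counts of the RTqPCR genes; further genes of clusters 5a to 5c and 4a were chosen after their values were seen. Members and lists were chosen with earlier results of these data known. The number of animals limits the precision, and no samples were pooled. Alternatives were other scaling, background, floors, filters, slide blocks and each rat left out.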

Additional observations from a re-analysis of the deposited data

Results flagged for a closer look

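In 11 of 106 groups of 4 rats (53 named genes in each sex), the mean of 1 rat stood apart from the other 3 by more than Dixon's 95% critical value; chance gives about 1 in 20, but many of these genes were named for differences between rats or sexes or for split calls, and all share the same rats, so that the number is no test. Female 8 stood low for Olr839 (-1.47, the others -0.17 to 0.00), Olr1581 (-0.61, the others -0.02 to 0.06) and Olr803 (-3.17, the others -2.44 to -2.31). Olr803 was not well above background in either nostril of female 8, with nostril A at the floor. Male 1, which has 1 array, stood high for Olr1539 (-0.12, the others -1.31 to -1.18) and Olr1608 (-1.10, the others -1.62 to -1.59), and low for Olr1658 (2.52, the others 2.89 to 2.96) and Olr1644 (-3.32, the floor, the others -2.19 to -1.96). Male 2 stood high for Olr1343 (-0.83, the others -1.31 to -1.23), Olr828 (1.94, the others 1.37 to 1.45) and Olr1660 (0.88, the others 0.42 to 0.49). Male 6 stood high for Olr801 (-0.15, the others -0.54 to -0.52).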

How the results depend on the processing

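The counts of 0 members called between the sexes and between nostrils were also found under every alternative that was fitted, including no replicate block (no rat term) between nostrils, where 0 were called. The 1 member called between rats stood beside 2.79% of all probes tested. It became 2 with normexp and quantile normalization (5.67% of all probes) and 2 with a floor of 0.2 (2.69%), with Olr858 in addition. It became 0 without the filter on dim probes (2.4%) and 0 with slide as a random block (0.537%). Within slides, an alternative chosen after seeing the data, it was 0 beside 0.00363% of all probes. Leaving out a rat gave 0 (without female 8, 0.674% of all probes) to 2 (without male 1, 2.82%). The number of members with an unadjusted p under 0.05 between nostrils, 34, was 22 without female 4 and 58 without female 8, and between the sexes 9 became 26 without male 2 and 4 with slide as a block. Of single genes, the nostril differences of the 4 and the sex differences of the 8 members with the smallest p were smaller with normexp and quantile normalization. The offset of 50 intensity units in that alternative by itself lowers log2 differences of dim probes. The 118 members expressed became 140 with the positive and significant call, 100 when all 15 arrays were needed and 116 to 119 without a rat. The median level of members, -0.47, was -0.19 with normexp and quantile normalization, a shift of scale. The median correlation within clusters, 0.29, was 0.31 for members detected on all 15 arrays and 0.14 after subtracting slide means. The cause of these differences was not tested. Each sex had 4 animals, 3 of the 4 slides held a single sex, and members near the limit of detection have values that the floor compresses.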
